A study of Rattus norvegicus with 4 samples.

Results

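The genes described here belong to the cell death machinery of rat primary Sertoli cells exposed to 4-nonylphenol (4-NP), an alkylphenol with estrogen-like activity. They are a list of 45 gene symbols for the BCL2 family, caspases, inhibitor of apoptosis proteins (IAPs), death receptors and the adaptors of these receptors. Of these, 37 were found by name in the mRNA table among 13114 gene names, and the other 8 (Mcl1, Hrk, Casp12, Cycs, Birc6, Tnfrsf10b, Cflar and Map3k5) were not analysed here. Sertoli cells, the somatic cells that nourish germ cells, had been isolated from testes of Sprague-Dawley rats 5 to 10 days old and used at passage 2. There were 2 control libraries without 4-NP and 2 libraries of cells treated with 0.5 mM 4-NP, sampled at 24 h. Nothing in the labels shows that libraries of a group came from separate cultures, so p-values cover the spread between these libraries only, which may be technical.

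Apoptosis is run by caspases, proteases that are kept inactive until a signal arrives. In the mitochondrial route, BH3-only proteins relieve or bypass survival proteins such as BCL2, effectors of the BAX and BAK type open the outer mitochondrial membrane, and released cytochrome c assembles APAF1 and caspase 9. In the receptor route, ligands of the tumour necrosis factor (TNF) family bind receptors that recruit FADD or TRADD and caspase 8, while RIPK3 and MLKL can divert the signal to necroptosis, a lytic death without caspases. IAPs restrain caspases or attach ubiquitin to proteins of the receptor complex. In the testis, apoptosis is known mostly for removing germ cells.

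Levels are in FPKM (fragments per kilobase of transcript, scaled to the fragments of the library), summed over the transcripts of a gene. Sequencing depth, derived from the circRNA table, was 116 and 119 M mapped reads in the controls and 104 and 96.6 M in the treated libraries. The label of the cells was only in part borne out by their markers. Sox9, Gata4 and Fshr, which define Sertoli cells, averaged 0.229, 0.430 and 0.175 FPKM in the controls. Other Sertoli markers were higher there, with means of 419 FPKM for Ctsl, 90.4 FPKM for Tf, 66.1 FPKM for Clu, 16.3 FPKM for Inha, 11.2 FPKM for Cldn11 and 3.58 FPKM for Wt1. Kitlg, Dhh, Inhbb and Rhox5 averaged 3.09, 2.87, 1.94 and 1.25 FPKM in the controls, and Amh and Gdnf were not analysed here. Markers of peritubular myoid cells, the contractile cells around the tubules, were abundant. Their summed level was 7893 and 7979 FPKM in the controls against 660 and 648 FPKM in the treated libraries, and 9 of 9 were lower. Tagln, a smooth muscle actin-binding protein among them, averaged 3935 FPKM in the controls and 419 FPKM with 4-NP. Of 9 tested Sertoli markers 8 were lower and 1 higher, and of 4 germ cell markers 4 were lower. Of macrophage and endothelial markers 2 of 2 each were lower, with several defining ones near 0. By the limma test described below, 24.7% of all genes were higher and 23.1% lower. Wt1, Inhbb, Cldn11, Dhh, Kitlg, Dazl, Kit, Tex101, Cd14, Lyz2, Cdh5, Esam and Mylk passed the filter only through their control level. That filter, a mean of at least 1 FPKM, favoured lower calls among them. Cd68, a macrophage marker under the filter, was at 0.089 and 0.301 FPKM in the controls and 0.552 and 0.812 FPKM with 4-NP. Zbtb16, Sycp3 and Ptprc, also under it, overlapped. Of 3 tested Leydig markers 1 was higher and 2 lower. Star, the cholesterol carrier of steroid synthesis, averaged 307 FPKM in the controls and 801 FPKM with 4-NP, and Akr1c14 and Hsd11b1 fell from 83.6 and 29.2 FPKM to 3.22 and 11.8 FPKM. In whole cultures, fewer cells of a type and less RNA per cell cannot be told apart. The part of these shifts in the results below was not tested.

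Log2 changes are differences of mean log2(FPKM + 1), treated minus control, given with their SE. The comparison asked how the mRNAs of this machinery differed between 4-NP-treated and control cells. The list moved in both directions. Ripk3 and Birc3 rose most, by 6.61-fold and 6.86-fold, and Bmf fell most, by 28.2-fold. Of 33 members with a mean of at least 1 FPKM, 11 were higher and 7 lower in treated cells (limma on log2(FPKM + 1), Benjamini-Hochberg adjusted p under 0.05), which is 54.5% of them against 47.8% of all 8012 genes tested. Over all genes 24.7% were higher and 23.1% lower, so the share of members called lay near this background. The median log2 change was -0.10 over the tested members and 0.05 over all genes, and the median size of change was 0.75 against 0.63. In 29 of the 33 the libraries of the groups did not overlap (15 higher and 14 lower), where 76.4% of all genes behaved so (40.1% higher and 36.3% lower). Of the tested members, 5 passed the filter only through their control level (Bmf, Bcl2l11, Casp1, Casp6 and Endog). Bcl2, Bad, Bik and Mlkl stayed under the filter.

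**Figure D1:**
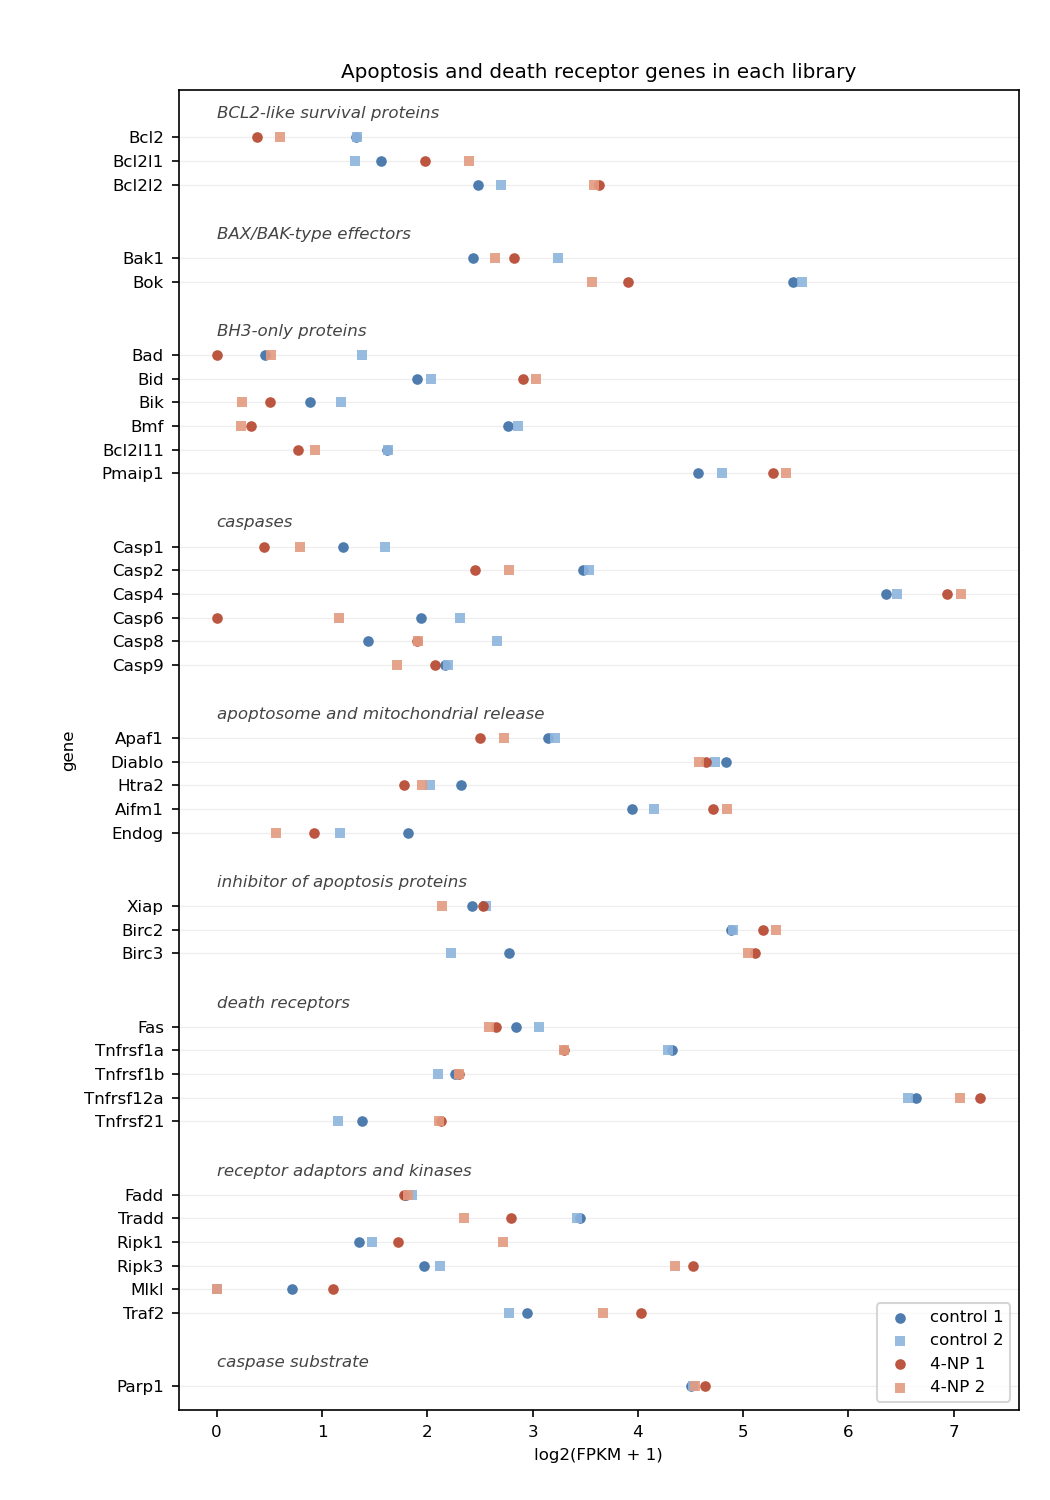
Level of each of the 37 members in the 4 libraries, as log2(FPKM + 1) on the horizontal axis, with genes grouped by role. Blue points are controls and red points 4-NP-treated libraries, circles are replicate 1 and squares replicate 2. Casp4 and Tnfrsf12a sit at the right, and the red points of Bmf and Bok lie far to the left of the blue ones.

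**Figure D2:**
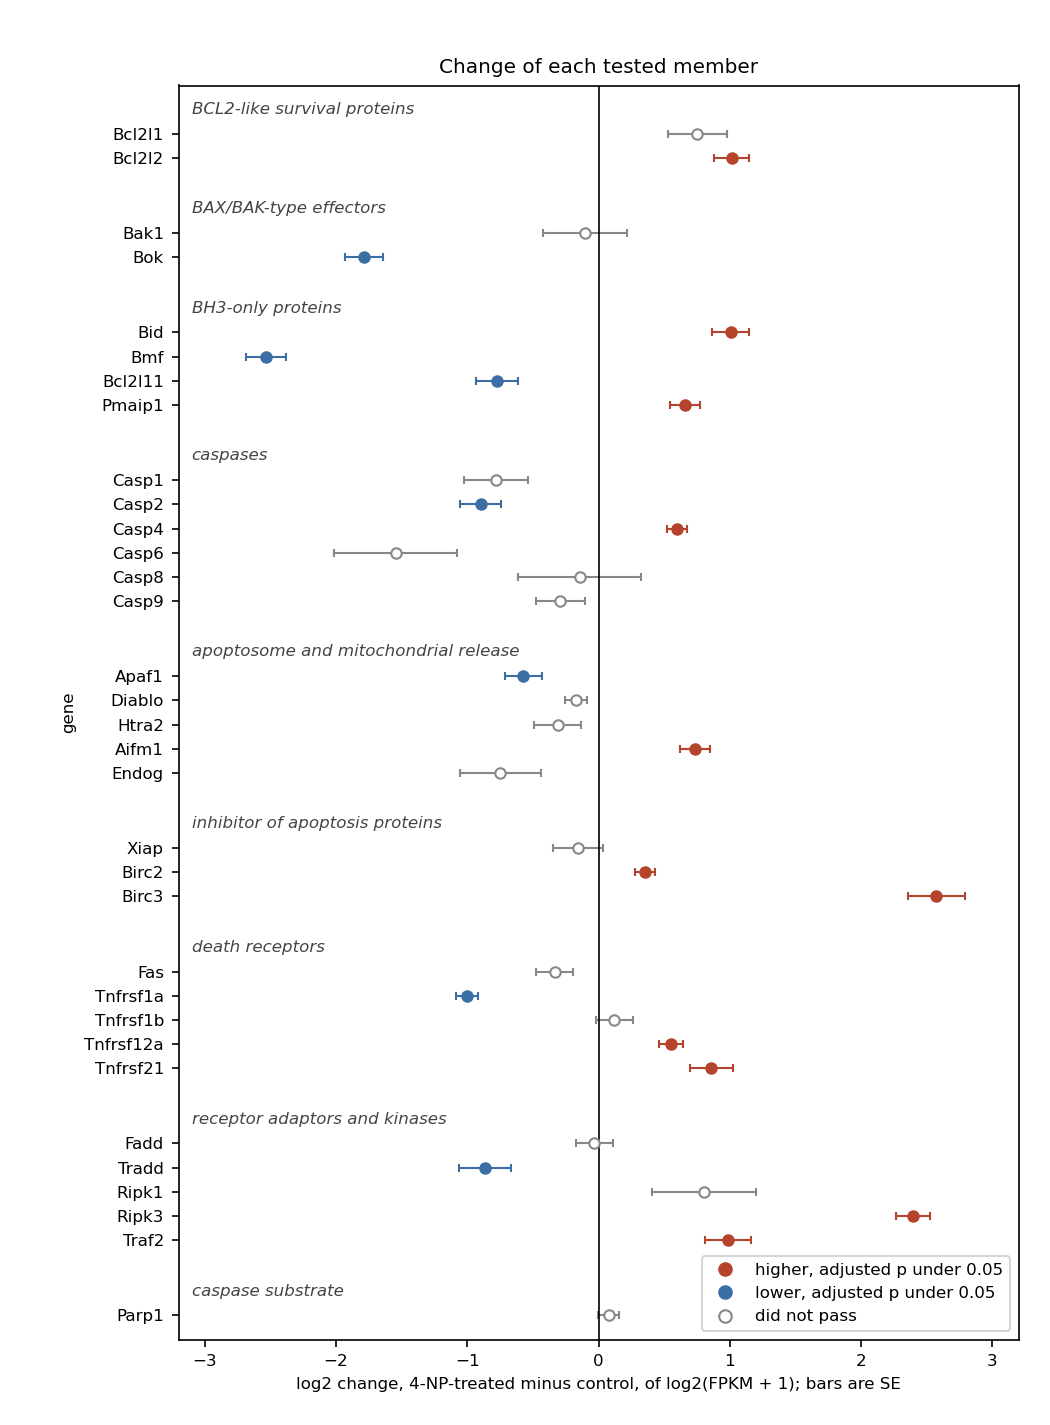
Log2 change (4-NP-treated minus control, on the log2(FPKM + 1) scale) of the 33 tested members with its standard error, from limma. Filled points passed at an adjusted p under 0.05, with 11 higher in red and 7 lower in blue, and open points did not pass.

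The number of calls depended on having all 4 libraries. It was 9 without control replicate 1, 10 without control replicate 2, 10 without treated replicate 1 and 10 without treated replicate 2, where 34.2%, 35.2%, 31.2% and 30.0% of all genes passed. By direction, the members higher and lower were 6 and 3, 7 and 3, 6 and 4, and 5 and 5 in the same order. Over all genes the shares were 17.3% and 16.9%, 18.9% and 16.3%, 15.2% and 16.0%, and 14.2% and 15.9%. Bok, Bmf, Casp4, Birc3, Tnfrsf1a and Ripk3 passed in all 4 of these refits. With the replicate number as a block, 10 members were higher and 4 lower, against 21.0% and 19.1% of all genes, or 40.1% in either direction. The study's cut-offs, an unadjusted p under 0.05 and a log2 change beyond 1, were also applied to limma on log2(FPKM + 1). By these, 4 members were higher and 4 lower, against 11.4% and 15.2% of all genes, or 26.6% in either direction. The study applied them in edgeR, and the log2(FPKM + 1) scale understates changes of low genes. Bcl2l11 (2.57-fold lower) and Tnfrsf21 (2.38-fold higher), for example, were not counted.

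**Figure D3:**
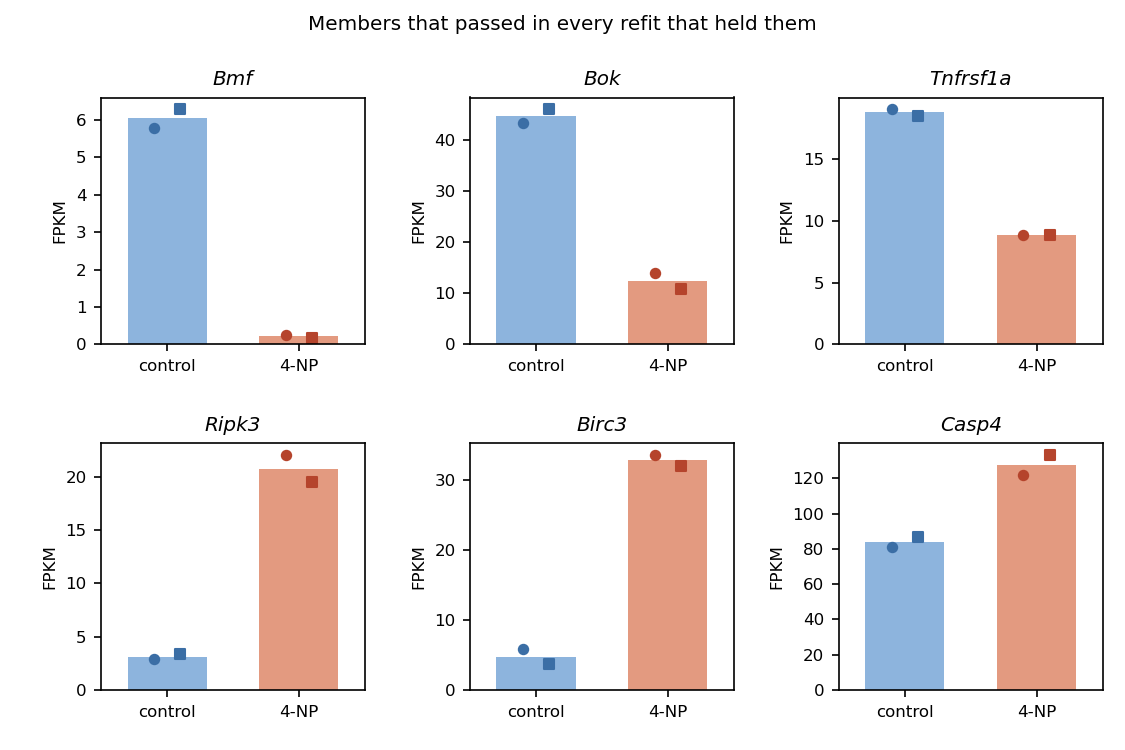
FPKM of the 6 members that passed in every refit that held them. Bars are means of 2 libraries and points are the libraries. Bmf, Bok and Tnfrsf1a were lower with 4-NP, and Ripk3, Birc3 and Casp4 higher.

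Among the survival proteins, Bcl2l2 rose. Bcl2l2 (BCL-W), which in mice is needed for spermatogenesis, was at 4.59 and 5.52 FPKM without 4-NP and 11.4 and 11.0 FPKM with it. The groups lay well apart, and the level was 2.21-fold higher with 4-NP (log2 change 1.01 ± 0.13, limma, adjusted p = 0.00811). It did not pass when either treated library was left out (adjusted p up to 0.056). Bcl2l1 (BCL-XL) was at 1.94 and 1.48 FPKM without 4-NP and 2.94 and 4.27 FPKM with it, and did not pass (log2 change 0.75 ± 0.23, limma, adjusted p = 0.0623). Its treated libraries were both above the controls but apart from each other. A transcript of 2 exons, ENSRNOT00000081272, accounted for 2.14 FPKM in treated replicate 2 and at most 0.211 FPKM elsewhere. Bcl2, the founding survival gene, was under the filter, with 1.51 and 1.52 FPKM in the controls and 0.303 and 0.519 FPKM after 4-NP. The level of Bcl2l2 over that of Bcl2 was thus 3.05 and 3.62 in controls and 37.7 and 21.1 in treated libraries. Here too the treated denominators were under 1 FPKM, which makes the size of the ratio uncertain.

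Of the listed effectors, Bok fell and Bak1 did not pass. Bok, an effector related to BAX that is abundant in reproductive tissues, was more abundant than Bak1, the other effector on the list, with 43.5 and 46.1 FPKM without 4-NP and 14.0 and 10.8 FPKM with it. It fell 3.62-fold (log2 change -1.78 ± 0.14, limma, adjusted p = 0.00307), whichever library was left out. Its transcript spans 100829552 to 100840504 on chromosome 9, with 5 exons, in the coordinates of the deposited table, of a build not given in the sources used here. Bak1 was at 4.39 and 8.45 FPKM without 4-NP and 6.06 and 5.25 FPKM with it. Here the groups overlapped, since the controls differed more from each other than from the treated libraries (log2 change -0.10 ± 0.32, limma, adjusted p = 0.811).

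BH3-only genes, the sensors that start the mitochondrial route, were split. Bmf, whose product is tied to the cytoskeleton in healthy cells, was at 5.80 and 6.28 FPKM without 4-NP and 0.252 and 0.177 FPKM with it. Both treated libraries were close to 0, and Bmf fell whichever library was left out (log2 change -2.54 ± 0.15, limma, adjusted p = 0.00187). Bmf lies on chromosome 3 from 110306067 to 110324084, with 5 exons. Bcl2l11 (BIM) was at 2.07 and 2.09 FPKM without 4-NP and 0.709 and 0.906 FPKM with it, and fell by 0.77 ± 0.16 (limma, adjusted p = 0.0252). Although its groups did not overlap, the call was lost whichever library was left out (adjusted p up to 0.0927). The other pair rose. Bid, which links death receptors to mitochondria once caspase 8 cuts it, went from 2.73 and 3.09 FPKM to 6.52 and 7.20 FPKM (log2 change 1.01 ± 0.14, limma, adjusted p = 0.00919), but did not pass without control replicate 1 or treated replicate 2 (adjusted p up to 0.0583). Pmaip1 (NOXA), which antagonises MCL1, was the most abundant of this group, at 22.8 and 26.8 FPKM without 4-NP and 38.0 and 41.5 FPKM with it. Its log2 change was 0.66 ± 0.11 (limma, adjusted p = 0.0157), and it passed without control replicate 2 but not without control replicate 1, treated replicate 1 or treated replicate 2 (adjusted p up to 0.0861). Pmaip1 over Bmf changed from 3.93 and 4.27 to 151 and 234, a ratio whose treated denominators lie close to 0. Bad and Bik stayed under the filter, at most at 1.60 FPKM in any library, and Bad was listed at 0 in treated replicate 1, which can be a failed estimate.

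Of 6 tested caspases 1 rose, 1 fell and 4 did not pass, where 24.7% of all genes were higher and 23.1% lower. Casp4, an inflammatory caspase that cuts gasdermin D, was by far the most abundant, at 80.9 and 86.9 FPKM without 4-NP and 122 and 133 FPKM with it. The groups did not overlap, and the 1.52-fold difference passed whichever library was left out (log2 change 0.60 ± 0.08, limma, adjusted p = 0.00833). Casp2, an initiator that responds to DNA damage and centrosome faults, fell from 10.2 and 10.6 FPKM to 4.48 and 5.83 FPKM (log2 change -0.90 ± 0.16, limma, adjusted p = 0.0166), though not without either control or without treated replicate 1 (adjusted p up to 0.0876). Casp6, an effector caspase, had 2.83 and 3.97 FPKM without 4-NP and was listed at 0 and at 1.24 FPKM after 4-NP (limma, adjusted p = 0.0649). Casp8, the initiator at death receptors, was at 1.70 and 5.35 FPKM without 4-NP and 2.74 and 2.77 FPKM with it, so its controls bracketed both treated values. Casp9, the initiator of the apoptosome, did not pass either, with a log2 change of -0.29 ± 0.19 (limma, adjusted p = 0.278).

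Casp1 and Casp4 are related inflammatory caspases that lie 21219 bases apart on the same strand of chromosome 8. Casp1 was at 1.30 and 2.03 FPKM without 4-NP and 0.362 and 0.729 FPKM with it. It did not pass (log2 change -0.78 ± 0.25, limma, adjusted p = 0.0705). The level of Casp4 over that of Casp1 was 62.4 and 42.8 in controls and 336 and 183 in treated libraries. The treated denominators of this ratio were under 1 FPKM, so its size is uncertain. Whether reads of these related genes were shared in counting is not known.

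In the mitochondrial set, Apaf1 and Aifm1 passed in opposite directions. Apaf1, the scaffold that activates caspase 9, was at 7.89 and 8.29 FPKM without 4-NP and 4.66 and 5.61 FPKM with it, a log2 change of -0.57 ± 0.14 (limma, adjusted p = 0.0367). The call was lost whichever library was left out (adjusted p up to 0.147). Aifm1, a flavoprotein of the intermembrane space that supports the respiratory chain and can move to the nucleus in dying cells, rose from 14.4 and 16.7 FPKM to 25.3 and 27.8 FPKM (log2 change 0.73 ± 0.11, limma, adjusted p = 0.012), but not without either treated library (adjusted p up to 0.0705). Nearly all of it came from the transcript ENSRNOT00000008503. Diablo, an IAP antagonist and the most abundant of the set, was at 27.6 and 25.7 FPKM without 4-NP and 24.1 and 23.0 FPKM with it. It did not pass (log2 change -0.17 ± 0.08, limma, adjusted p = 0.163). Htra2, a protease with a like role, and Endog, a nuclease, had log2 changes of -0.31 ± 0.18 and -0.75 ± 0.31 and did not pass either.

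The IAPs included the most raised member. Birc3 (cIAP2), a ubiquitin ligase of TNF receptor complexes and a classic NF-kB target, was at 5.86 and 3.69 FPKM without 4-NP and 33.6 and 32.0 FPKM with it. The treated libraries were alike and far above both controls, which differed from each other (log2 change 2.57 ± 0.22, limma, adjusted p = 0.00335), and the call held whichever library was left out. Its neighbour Birc2 (cIAP1), 14826 bases away on the same strand of chromosome 8, rose far less, from 28.6 and 29.0 FPKM to 35.6 and 38.7 FPKM (log2 change 0.36 ± 0.08, limma, adjusted p = 0.0276). Birc2 was not called after scaling by the median ratio, nor whichever library was left out (adjusted p up to 0.102). The level of Birc3 over that of Birc2 moved from 0.205 and 0.127 to 0.943 and 0.825. Xiap, the direct caspase inhibitor, was at 4.38 and 4.90 FPKM without 4-NP and 4.79 and 3.42 FPKM with it, and the groups overlapped (limma, adjusted p = 0.546). Of its 3 transcripts, ENSRNOT00000009336 stayed between 2.21 and 2.66 FPKM. ENSRNOT00000085110 was listed at 2.25 FPKM in control replicate 2 and at 0 in the others, and ENSRNOT00000078482 was listed at 0 in control replicate 2 alone.

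Among death receptors, Tnfrsf1a fell while Tnfrsf12a and Tnfrsf21 rose. Tnfrsf1a (TNF receptor 1), on chromosome 4 from 157864969 to 157877633 with 10 exons, had 19.0 and 18.5 FPKM without 4-NP and 8.87 FPKM in both treated libraries. Replicates were nearly alike within each group, and the level was 2.12-fold lower with 4-NP (SE of the log2 change 0.08, limma, adjusted p = 0.00332). The call held whichever library was left out. Tnfrsf12a (FN14), the receptor of TWEAK, which has no death domain, was the most abundant member of all, at 99.0 and 94.0 FPKM without 4-NP and 152 and 133 FPKM with it (log2 change 0.55 ± 0.09, limma, adjusted p = 0.0137). It was lost without either control (adjusted p up to 0.0709). Tnfrsf21 (DR6), an orphan death receptor, rose from 1.60 and 1.22 FPKM to 3.39 and 3.32 FPKM (log2 change 0.86 ± 0.16, limma, adjusted p = 0.0206), but not without control replicate 2 or either treated library (adjusted p up to 0.0912). Fas was at 6.17 and 7.35 FPKM without 4-NP and 5.28 and 5.00 FPKM with it (limma, adjusted p = 0.13). Tnfrsf1b (TNF receptor 2), which also lacks a death domain, had a log2 change of 0.12 ± 0.14 (limma, adjusted p = 0.52). Neither passed.

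Below the receptors, Ripk3 rose and Tradd fell. Ripk3, the kinase of necroptosis, on chromosome 15 from 34470796 to 34479741 with 12 exons, was at 2.93 and 3.36 FPKM without 4-NP and 22.1 and 19.5 FPKM with it. The groups were far apart, and Ripk3 passed whichever library was left out (log2 change 2.39 ± 0.13, limma, adjusted p = 0.00159). Mlkl, the membrane-disrupting substrate of RIPK3, had 0.646 FPKM in control replicate 1, had 1.15 FPKM in treated replicate 1 and was listed at 0 in both second replicates, too low to test. Ripk1, the kinase upstream of RIPK3, was at 1.54 and 1.79 FPKM without 4-NP and 2.29 and 5.58 FPKM with it. The treated replicates disagreed, and Ripk1 did not pass (log2 change 0.80 ± 0.39, limma, adjusted p = 0.174). Traf2, an adaptor that brings cIAPs to TNF receptors, rose from 6.73 and 5.84 FPKM to 15.4 and 11.7 FPKM (log2 change 0.99 ± 0.18, limma, adjusted p = 0.0171), but not without either control or without treated replicate 1 (adjusted p up to 0.0845). Tradd, the adaptor of TNF receptor 1, fell from 9.95 and 9.69 FPKM to 5.94 and 4.08 FPKM (log2 change -0.87 ± 0.20, limma, adjusted p = 0.0311). Tradd did not pass without either control or without treated replicate 2 (adjusted p up to 0.132). Fadd, the adaptor of Fas, stayed between 2.43 and 2.61 FPKM in all 4 libraries. Parp1, a nuclear enzyme that caspases cut, was at 21.7 and 22.0 FPKM without 4-NP and 24.0 and 22.3 FPKM with it. It did not pass (log2 change 0.08 ± 0.08, limma, adjusted p = 0.467), and the sign of this small change reversed on rescaling.

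Summed over each role, the levels of the 3 survival genes were 8.04 and 8.52 FPKM in controls and 14.7 and 15.8 FPKM in treated libraries, and those of the 3 IAPs 38.9 and 37.6 against 73.9 and 74.1 FPKM. Of these IAPs, Birc3 averaged 4.77 FPKM in controls and 32.8 FPKM with 4-NP, Birc2 28.8 and 37.2 FPKM, and Xiap did not pass. The IAP sum leaves out Birc5, outside the list, which was lower with 4-NP (means of 17.1 against 4.48 FPKM). Bok and Bak1 together went from 47.9 and 54.6 FPKM to 20.0 and 16.1 FPKM, a sum that leaves out Bax, an effector outside the list that was higher with 4-NP (35.0 and 32.0 against 47.0 and 47.8 FPKM). The 6 caspases summed to 100.4 and 112 FPKM in controls and 132 and 146 FPKM in treated libraries, most of it Casp4. Sums also rose for the 6 BH3-only genes, from 34.6 and 41.2 FPKM to 45.9 and 50.4 FPKM. The 5 death receptors went from 130 and 124 FPKM to 173 and 154 FPKM, most of it Tnfrsf12a. The 6 receptor adaptors and kinases went from 24.3 and 23.3 FPKM to 49.2 and 43.4 FPKM. The 5 genes of the mitochondrial set went from 56.46 and 55.05 FPKM to 57.39 and 59.74 FPKM. Parp1, alone in its role, is given above. These sums are descriptions, and they hold the members found in the table only.

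**Figure D4:**
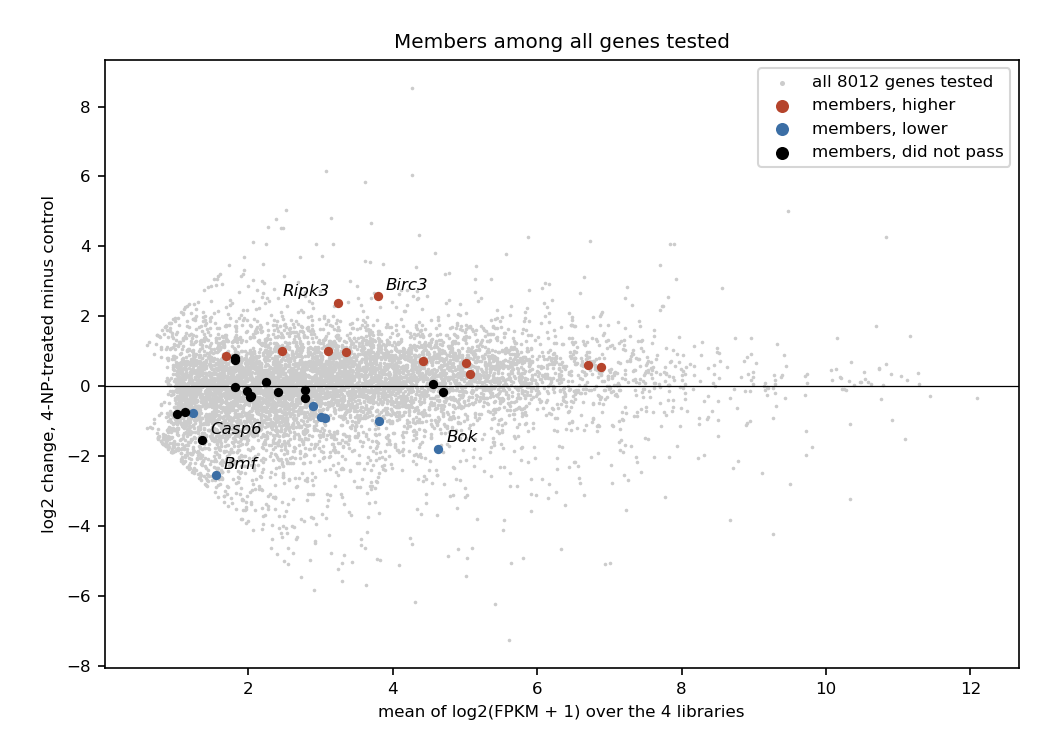
Log2 change (vertical, 4-NP-treated minus control) against mean log2(FPKM + 1) over the 4 libraries (horizontal) for all 8012 genes tested in grey and the 33 tested members in colour. Members with a log2 change beyond 1.5 in either direction are named, and they lie inside the cloud of all genes.

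Promoter windows from RefSeq (build GRCr8, 250 bases before to 50 after the start of a gene) were found for 29 of the 37 members in the table and for 14 of the 18 called ones. They are shown for the 2 most raised and the 2 most lowered of these by log2 change. This lets the promoters of genes that moved in opposite ways be compared. Each was searched on both strands for the C/EBP-ATF response element (TGATGNAA), the NF-kB site (GGG and CC around any 5 bases, so that matches can overlap), the AP-1 site (TGANTCA) and the endoplasmic reticulum stress element (CCAAT and CCACG around any 9 bases), and capitals mark every match.
Ripk3, chr15:33261976-33262275, minus strand: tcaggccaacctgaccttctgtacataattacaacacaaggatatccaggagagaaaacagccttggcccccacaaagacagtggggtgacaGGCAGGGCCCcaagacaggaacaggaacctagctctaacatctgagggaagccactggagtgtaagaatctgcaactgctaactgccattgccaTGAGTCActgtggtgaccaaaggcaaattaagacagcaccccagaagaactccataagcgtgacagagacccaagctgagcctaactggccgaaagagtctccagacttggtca
Bcl2l2, chr15:32326511-32326810, plus strand: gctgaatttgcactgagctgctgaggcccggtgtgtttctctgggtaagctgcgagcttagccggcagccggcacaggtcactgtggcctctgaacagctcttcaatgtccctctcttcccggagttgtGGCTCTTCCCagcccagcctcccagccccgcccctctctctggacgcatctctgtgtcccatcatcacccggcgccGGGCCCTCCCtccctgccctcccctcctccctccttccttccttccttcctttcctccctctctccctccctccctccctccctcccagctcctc
Bmf, chr3:125974015-125974314, minus strand: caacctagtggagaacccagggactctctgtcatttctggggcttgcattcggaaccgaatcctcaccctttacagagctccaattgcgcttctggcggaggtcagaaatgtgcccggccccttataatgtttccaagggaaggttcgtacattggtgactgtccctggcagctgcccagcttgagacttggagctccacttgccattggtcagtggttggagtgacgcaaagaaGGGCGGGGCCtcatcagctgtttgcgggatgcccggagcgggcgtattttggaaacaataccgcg
Tnfrsf1a, chr4:159836869-159837168, plus strand: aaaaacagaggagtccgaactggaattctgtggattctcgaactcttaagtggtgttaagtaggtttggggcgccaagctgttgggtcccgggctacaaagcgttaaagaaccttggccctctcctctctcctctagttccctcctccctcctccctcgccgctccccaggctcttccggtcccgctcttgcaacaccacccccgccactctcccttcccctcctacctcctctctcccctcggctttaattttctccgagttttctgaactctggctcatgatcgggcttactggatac

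In the Ripk3 window the AP-1 letters TGAGTCA began 64 bases before the start and an NF-kB match 158 bases before it. The Bcl2l2 window held NF-kB letters 121 and 45 bases before the start, the latter on both strands, and the Bmf window held them 15 bases before it. No searched letters occurred in the Tnfrsf1a window. Over the 14 windows, NF-kB letters were in 6 of 9 raised and 4 of 5 lowered members, where 47.3% of all 33469 windows hold them. AP-1 letters were in the windows of Birc2 and Ripk3 alone among the 14, against 7.33% of all windows. The C/EBP-ATF and stress element letters were in 0 of 14, against 3.98% and 0.0657%. A match is a description of letters and not a bound site, and windows of Birc3, Bok, Casp4 and Tradd were not analysed here.

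Genes of the same pathway outside the list also moved both ways. Of 91 further symbols, 74 were in the table, 59 were tested, 10 were higher and 14 lower, 40.7% of the tested ones against 47.8% of all genes, and the other 15 in the table were under the filter. Gsdmd, the pore former that CASP4 cuts, went from 65.5 and 67.5 FPKM in controls to 32.2 and 31.2 FPKM after 4-NP (log2 change -1.05 ± 0.06, limma, adjusted p = 0.00184). It was lower in each treated library than in each control, while Casp4 itself was higher. Tnfrsf11b (osteoprotegerin), a decoy receptor of TNF family ligands, went from 10.1 and 11.2 FPKM to 0.579 and 0.275 FPKM (log2 change -3.03 ± 0.18, limma, adjusted p = 0.00187). Birc5 (survivin), an IAP family protein that also serves in mitosis, went from 18.0 and 16.3 FPKM to 4.65 and 4.30 FPKM (log2 change -1.73 ± 0.11, limma, adjusted p = 0.00206).

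In all, 4 of the 8 further genes with the smallest p rose. Bfar, a regulator of apoptosis in the endoplasmic reticulum membrane, went from 17.1 and 17.9 FPKM to 59.3 and 61.6 FPKM (log2 change 1.73 ± 0.07, limma, adjusted p = 0.00104). Aatf, a survival factor that blocks apoptosis, went from 15.3 and 14.8 FPKM to 43.7 and 43.9 FPKM (log2 change 1.48 ± 0.07, limma, adjusted p = 0.00127). In both, replicates lay close together and the groups far apart. Pdcd6 (ALG-2), a calcium-binding protein, rose 1.84-fold from 46.5 and 47.7 FPKM to 89.8 and 83.6 FPKM (log2 change 0.87 ± 0.07, limma, adjusted p = 0.00281). Its partner Pdcd6ip (ALIX) rose 2.24-fold from 14.5 and 16.6 FPKM to 33.8 and 36.1 FPKM (log2 change 1.12 ± 0.10, limma, adjusted p = 0.00379). Of the 4 most abundant further genes, Bnip3, a mitophagy receptor, went from 179 and 213 FPKM to 85.4 and 92.7 FPKM (log2 change -1.13 ± 0.11, limma, adjusted p = 0.00436), and Pdcd6 was named above. Tax1bp1, an adaptor that limits NF-kB signalling, had 143 and 159 FPKM without 4-NP against 168 and 181 FPKM (limma, adjusted p = 0.117). Bag1, a co-chaperone, had 47.4 and 58.9 FPKM against 57.1 and 67.0 FPKM (limma, adjusted p = 0.294). Neither passed. The further genes named to here as passing did so whichever library was left out. Bax and Pycard were named after their values were seen. Bax, the main effector beside BAK1, was at 35.0 and 32.0 FPKM without 4-NP and 47.0 and 47.8 FPKM with it (log2 change 0.49 ± 0.08, limma, adjusted p = 0.0124), lost without either treated library (adjusted p up to 0.0715). Pycard (ASC), the inflammasome adaptor, had 6.20 and 6.24 FPKM without 4-NP and was listed at 0 and at 0.767 FPKM in treated libraries (log2 change -2.44 ± 0.33, limma, adjusted p = 0.00892), and was not called without either control (adjusted p up to 0.0541). Tnfrsf11b and Pycard, like the 5 members named earlier, passed the filter only through their control level.

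**Figure D5:**
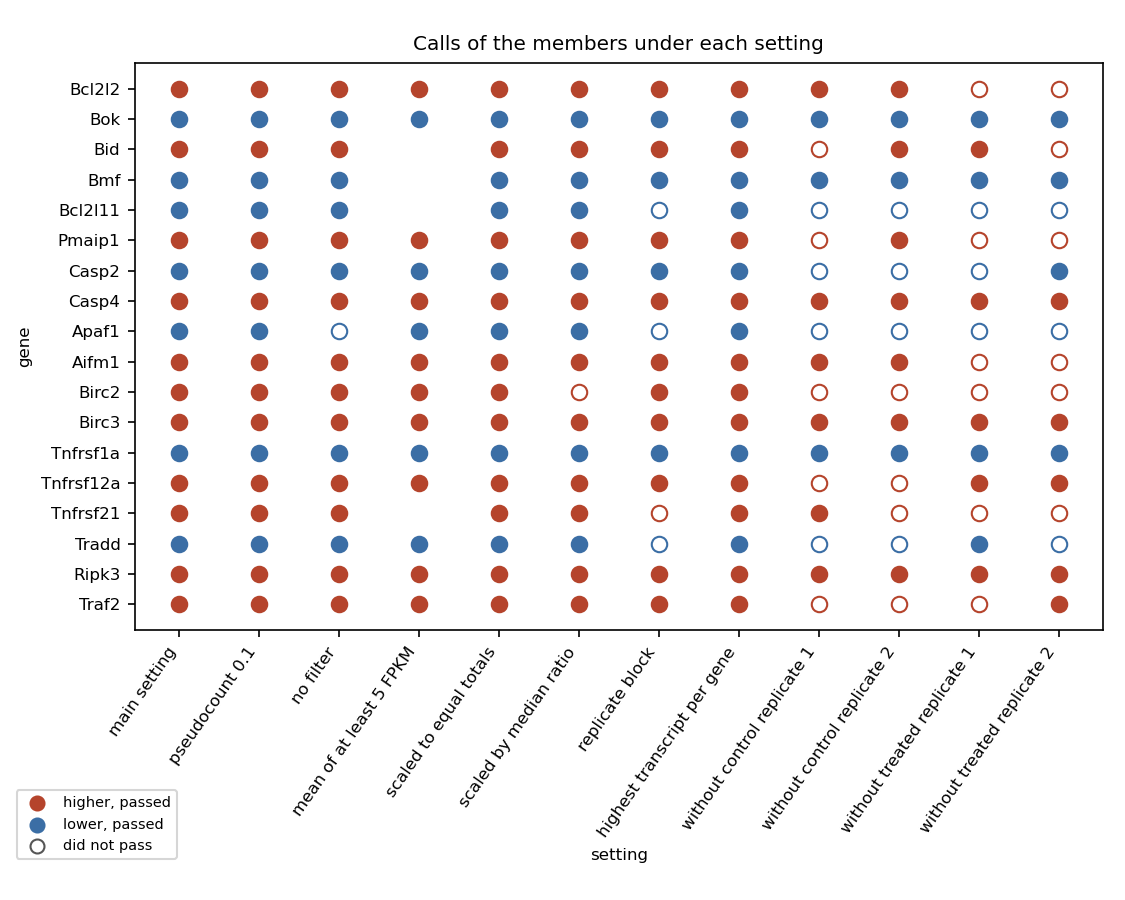
Calls of the 18 members under each setting (horizontal axis). Filled points passed at an adjusted p under 0.05, open points did not, red is higher and blue lower with 4-NP, and a gap marks a gene that the stricter filter removed. The columns that leave out a library hold most of the open points.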

How the data were processed

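RNA was sequenced after removal of ribosomal RNA with RNase H in 2 control and 2 treated libraries. Groups and replicate numbers came from the sample titles, and table columns named NP were matched to the treated samples. HISAT2 and DESeq2 stand in the processing notes of the submitters, while FastQC and edgeR stand in the study's methods, and their versions, like the genome build, were not given in the sources used here. The authors deposited FPKM per transcript for mRNAs and lncRNAs. For circRNAs the authors deposited counts of back-splice reads and SRPBM, a signal scaled to the mapped reads of a library. Dividing these gave the mapped reads per library. The lncRNA and circRNA tables list selected entries only. No listed lncRNA is assigned to a member, and the circRNA table has no host gene column, so neither was used further. Columns with the authors' own fold changes, p-values and q-values were not used.

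Of 17290 mRNA rows, 1545 that repeated a transcript were dropped. FPKM was summed per gene name, and the 8012 names with a mean of at least 1 FPKM entered limma 3.58.1 on the log2(FPKM + 1) scale with a trend and group as the only term in R 4.3.3, two-sided, with Benjamini-Hochberg adjustment over all of them. The log2(FPKM + 1) scale understates changes of low genes, while folds are ratios of mean FPKM. An exact permutation test of 2 against 2 cannot go below 0.333 and was not used. The test was checked on simulated data. FPKM files give no read depth per gene, so no counting interval is given. Near-identical genes may share reads. The study's edgeR test needs counts and was not run.

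Members and lists were chosen with earlier results of these data known. By the rule for named genes, called members and the most abundant of each role have their values printed, as do the 8 further genes with the smallest p and the 4 most abundant, except 1 that is not reported here. Library values of Bcl2, Bcl2l1, Bak1, Bad, Bik, Casp1, Casp6, Casp8, Xiap, Fas, Fadd, Ripk1 and Mlkl go beyond this rule and were chosen after their values were seen, as were the motifs. Mean levels of markers other than Sox9, Gata4, Fshr and Tagln also go beyond the rule set for markers. Alternatives were the pseudocount, filter, scaling, threshold, the most abundant transcript per gene, a block for the replicate number, and the removal of each library in turn. Python 3.11.15, pandas 2.3.3, numpy 2.4.6 and matplotlib 3.10.9 were used for the other steps.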

Additional observations from a re-analysis of the deposited data

How the results depend on the processing

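Over all genes, 1981 were higher and 1850 lower. The lower count was 1158 with a mean of at least 5 FPKM, and the counts were 914 and 1218 with an unadjusted p under 0.05 and a log2 change beyond 1. Without single libraries the higher count ranged from 1134 to 1518 and the lower from 1270 to 1356. For the members (11 higher, 7 lower), leaving out a library gave 5 to 7 higher and 3 to 5 lower, and the study's criterion 4 and 4. The further pathway genes (10 higher, 14 lower) gave 7 to 10 higher and 8 to 10 lower without a library, 9 lower with a mean of at least 5 FPKM, and 6 and 7 under the study's criterion. With a mean of at least 5 FPKM, 9 of 18 tested members were higher and 5 lower, against 1704 and 1158 of all 4918 genes then tested. The cause of these differences was not tested, beyond the fewer libraries and genes in each fit. With the replicate number as a block, 10 members were higher and 4 lower, and 1684 and 1532 of all genes, and Bcl2l11, Apaf1, Tnfrsf21 and Tradd were no longer called. The deviations of same-numbered libraries correlated at r = -0.0077 across 8012 genes. Such a correlation cannot decide whether the numbers pair the samples, since a pairing that affected few genes would hardly move it. Scaling to equal totals gave 1808 higher and 2009 lower, and the median ratio 1711 and 2087, with median log2 changes over all genes of -0.02 and -0.06 against 0.05. Parp1 then changed sign, to -0.0024 and -0.0493 on the log2 scale. The pseudocount and the most abundant transcript per gene changed no call of a member named here, while Apaf1 was not called with no filter. With 1 library left in a group, its spread is assumed to equal that of the other group.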

Other observations

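Within 25 kb of members in the deposited table, several neighbours moved more than the member itself. They were named after their values were seen. Rab33a, a small GTPase gene 5348 bases from Aifm1 on the opposite strand, had a log2 change of 2.39 (limma, adjusted p = 0.0019). Fbxw5, an F-box protein gene 14862 bases from Traf2 on the opposite strand, had one of 2.45 (limma, adjusted p = 0.00467). Cox4i2, a cytochrome oxidase subunit gene 14179 bases from Bcl2l1, went the other way from Bcl2l1, with a log2 change of -3.16 (limma, adjusted p = 0.00125). Around Htra2, which did not pass, Aup1 lay 120 bases away with a log2 change of 1.87 and Loxl3, a lysyl oxidase gene, 192 bases away with one of -1.57, both on the opposite strand. Apaf1 and Ikbip, 245 bases apart on opposite strands, were both lower, by log2 changes of -0.57 and -0.82. Reads shared between strands were not examined.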
